A study of Homo sapiens with 8 samples.

Results

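Wide QKI7 binding regions were defined as peaks that formed 1 unbroken block of at least 1000 bases, and 2338 of the 42083 peaks in 4 deposited lists met that rule. The peaks came from RNA immunoprecipitation sequencing (RIP-seq) in HepG2, a human liver cancer cell line that here carried Cas9 and a 3 x Flag-QKI7 transgene delivered by lentivirus. The 8 samples were immunoprecipitated (IP) and input RNA from cells that received a guide against METTL1 (sgMETTL1) or the control guide sgNS, with 2 replicates of each. All groups carried the transgene and Cas9, and only GFP-positive cells were expanded. A Flag antibody was used for the IP after cells were UV cross-linked and sonicated, so that the IP was directed at the tagged, introduced QKI7. Whether the cell's own QKI came down with it was not tested. Each list came from 1 IP and 1 input sample. The width and the number of blocks chose the wide peaks, so every value on width below is a description without a test. Separate cultures are not stated for the replicates, and a p-value then covers the spread of these particular samples, possibly technical.

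Quaking (QKI) is a STAR-domain RNA-binding protein that recognises a core ACUAAY element with a nearby UAAY half-site, and it controls splicing, stability and translation of its targets. QKI7 is an isoform that differs from the nuclear QKI5 in its C-terminal tail and is found largely in the cytoplasm. METTL1, with its partner WDR4, places 7-methylguanosine on RNA, and the design asks whether METTL1 affects how QKI7 binds its transcripts.

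One stretch of RNA from a wide peak could be shown, because a RefSeq start window lay inside it. In ERV3-1, an endogenous retroviral envelope gene on chromosome 7, the peak of 1079 bases in sgMETTL1 replicate 2 and in sgNS replicate 1 contained the RefSeq window around the start of ZNF117 on the same strand. The 30 bases at chr7:64991008-64991037 (GRCh38.p14, minus strand) are shown because they hold the letters ACTAAT of the QKI core element and 2 copies of TAAC, the half-site letters. These letters are in capitals below, with T for the U of the RNA.
ERV3-1 site: cgACTAATggcccTAACtaagtatTAACcc
A match of letters is a description, not a binding site. ACTAAT was found on the sense strand in 3.07% of 35116 RefSeq start windows (5.65% with both strands) and TAAC in 36.2% (55.2% with both strands). ACTAAC, the other form of the core, was found in 2.53% (5.01% with both strands). The 30 bases were picked by a search for ACTAAT. The peak over these letters had a fold of 2.91 and 11.6 in sgMETTL1 replicates 1 and 2, against 14.9 and 21.0 in sgNS replicates 1 and 2. In sgMETTL1 replicate 1 the region was split, and the adjoining piece of 390 bases (chr7:64990355-64990744), which the peaks of the other 3 lists also covered, had a fold of 11.8. The peak over the letters was narrower than 1000 bases in sgMETTL1 replicate 1 (481 bases) and in sgNS replicate 2 (930 bases). Each peak's fold (IP over input) and p are the authors' values, and depth is unknown because the lists give no counts.

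Hepatocyte identity could be read only from which genes had peaks, since a peak shows binding and not the level of an RNA. Of 9 hepatocyte markers, SERPINA1, FGB, APOB and HNF4A had peaks in all 4 lists, ALB had 1 peak in sgNS replicate 1, and AFP, APOA1, TTR and TF had none. Of 9 markers of other cell types, LYZ had a peak in all 4 lists, HBB had one in sgNS replicate 1 and the other 7 had none. METTL1 and WDR4 had no peak in any list, so the lists do not check the depletion of METTL1. In such bulk samples fewer cells carrying an RNA and less of it per cell cannot be told apart. With 2 lists against 2, an exact test cannot go below p = 0.333.

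The first question was how many wide peaks each guide gave. There were 469 and 469 wide peaks with sgMETTL1, against 712 and 688 with sgNS. Both sgMETTL1 lists lay below both sgNS lists, and wide peaks also made up a smaller share of all peaks there, 4.65 and 5% against 6.16 and 6.23%. Each of the 2338 was also among the 9388 best peaks of its list by p, the length of the shortest list, sgMETTL1 replicate 2. Cutting the lists to that length thus left the 4 counts as they were. By p the median wide peak stood at percentile 93.5 and 93.0 with sgMETTL1 and 91.9 and 91.7 with sgNS. The cut could therefore hardly remove wide peaks, and it does not show whether list length matters. The wide peaks lay in 437 and 446 genes with sgMETTL1 and in 663 and 639 genes with sgNS. Few in number, they held 18.7 and 19.0% of all bases under peaks with sgMETTL1 and 22.2 and 22.3% with sgNS.

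The median wide peak had 1289 and 1287 bases with sgMETTL1, against 1319 and 1320 bases with sgNS, whereas the median over all single-block peaks was 240 and 241 bases against 270 and 270 bases. At 1500 bases or more there were 151 and 135 peaks with sgMETTL1 and 248 and 232 with sgNS. At 2000 bases or more there were 60 and 48 with sgMETTL1 and 92 and 92 with sgNS. The gap between the guides was thus not limited to peaks near 1000 bases. In sgNS replicate 1 the peaks just inside the limit lay in FGB (1012 bases, fold 21.5), GINS4 (1013 bases, 9.04), PTGR2 (1014 bases, 17.7) and SOX9 (1014 bases, 3.54). Those just outside lay in RB1CC1 (990 bases, fold 8.29), APOL6 (991 bases, 40.5), ARID1B (991 bases, 22.2) and SMC1A (991 bases, 9.75), so the limit falls within a continuous range of widths and strengths. Widths came in steps: 54.6 and 53.9% of the sgMETTL1 wide peaks and 55.6 and 57.1% of the sgNS wide peaks were within 3 bases of a multiple of 30.

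**Figure D1:**
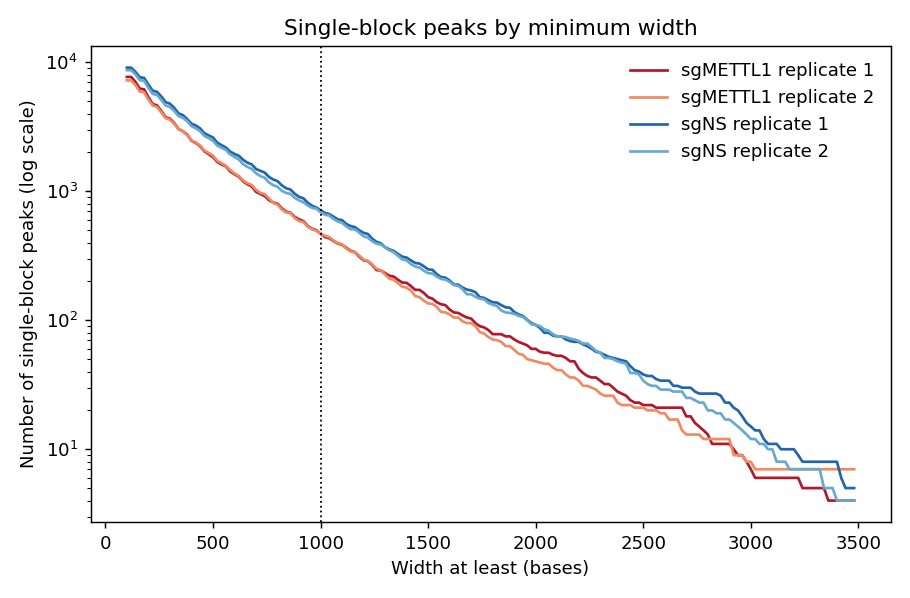
Number of single-block peaks (log scale) that are at least as wide as the value on the x axis (bases), with 1 line per list and a dotted line at 1000 bases. At 1000 bases the 2 sgMETTL1 lines lie at 469 and 469 peaks and the 2 sgNS lines at 712 and 688. Lines of different guides cross only above about 3000 bases, with few peaks left, while lines of the same guide also cross at smaller widths.

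Strength was not part of the rule, and wide peaks were among the strongest of every list. The median fold of wide peaks was 16.8 and 14.8 with sgMETTL1 and 17.0 and 14.4 with sgNS. Narrower single-block peaks had medians of 4.27 and 4.16 with sgMETTL1 and 4.18 and 3.99 with sgNS, and peaks joined from several exon blocks had 4.06 and 4.29 with sgMETTL1 and 5.12 and 4.40 with sgNS. The wide peaks of the guides overlapped in this measure, and the difference between replicates of 1 guide was larger than that between guides. Ranked within its list, with 100 as the strongest, the median wide peak stood at 85.5 and 83.6 with sgMETTL1 and at 85.2 and 83.3 with sgNS. Between 34.5 and 37.2% of the wide peaks of a list were in its top 10% by fold, and 2.99 to 3.51% were below the list's median. By p the gap was wider still, with a median −log10 p of 139 and 143 with sgMETTL1 and 200 and 189 with sgNS, against 7.42 and 7.98 with sgMETTL1 and 10.8 and 10.8 with sgNS over all peaks. A p also depends on the number of reads in a peak, so p and width are not independent measures.

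Among the 100 peaks with the highest fold, 21 and 23 were wide with sgMETTL1 and 33 and 35 with sgNS. The median fold rose through the width classes in each list, and for peaks of 2000 bases or more it reached 28.6 and 25.7 with sgMETTL1 and 30.0 and 27.2 with sgNS. The contrast was also present within genes. In the 311 and 316 genes with sgMETTL1, and the 480 and 470 genes with sgNS, that held both a wide peak and another peak, the strongest wide peak was the stronger in 81.0 and 80.7% of genes with sgMETTL1 and in 79.0 and 80.2% with sgNS. No test was made over peaks of 1 list, which are not replicates, and 4 lists are too few for an exact sign test to pass 0.05.

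Wide peaks lay at the 3' ends of genes. Their centre was in the last 10% of the gene's span for 80.6 and 80.6% of peaks with sgMETTL1 (95% exact binomial interval 76.7 to 84.0 for each) and for 80.7% (77.6 to 83.6) and 80.9% (77.8 to 83.8) with sgNS. Narrower single-block peaks had 77.7 to 78.9% there over the 4 lists, and multi-block peaks, which join exons across introns, 31.5 to 34.6%. Only 10 and 10 wide peaks with sgMETTL1 and 14 and 17 with sgNS were centred in the upstream 50% of a gene. What set wide peaks apart more was how close they came to the end itself. The downstream edge was within 100 bases of the annotated 3' end for 31.8% (27.6 to 36.3) and 32.7% (28.5 to 37.1) of wide peaks with sgMETTL1 and for 36.4% (32.9 to 40.1) and 34.9% (31.4 to 38.6) with sgNS. For narrower single-block peaks this share was 14.8 to 16.4% and for multi-block peaks 12.2 to 16.8%. A longer peak has more places for its edge and was not matched for length here, and intervals cover counting error only.

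**Figure D2:**
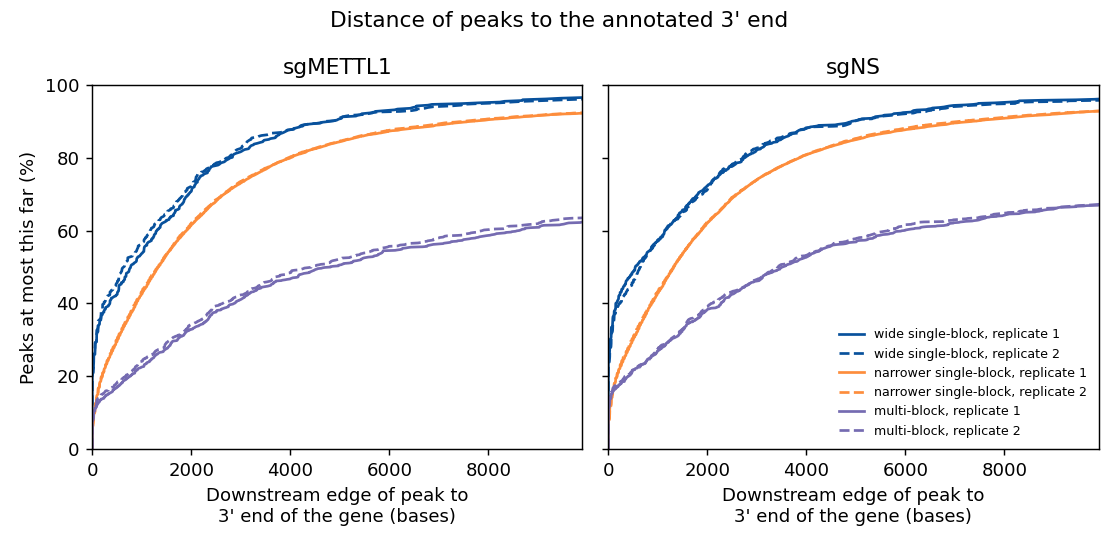
Share of peaks (y axis, %) whose downstream edge is at most the given distance (x axis, bases) from the annotated 3' end of the gene, for sgMETTL1 lists (left) and sgNS lists (right), by peak shape, with solid lines for replicate 1 and dashed lines for replicate 2. In all 4 lists the curve of wide peaks starts highest, with 31.8 to 36.4% within 100 bases, and that of multi-block peaks lies lowest at larger distances.

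Wide peaks were found again in nearly every other list, but often in another shape. All wide peaks of each list shared at least 1 base with some peak in the other list of the same guide, 469 of 469 in both directions with sgMETTL1 (interval 99.2 to 100%) and 712 of 712 and 688 of 688 with sgNS. For narrower single-block peaks the shares were 71.5 and 76.3% with sgMETTL1 and 76.5 and 81.9% with sgNS. A longer peak can share 1 base with another more easily, and lengths were not matched. The contrast with narrower peaks is therefore no evidence that wide peaks repeat better. Between guides, every sgMETTL1 wide peak had a counterpart in both sgNS lists. Of the sgNS wide peaks, 1 of 712 and 1 of 688 had none in sgMETTL1 replicate 1, and 0 of 712 and 2 of 688 had none in sgMETTL1 replicate 2.

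A wide counterpart was less usual. Of the sgMETTL1 wide peaks, 77.2% (73.1 to 80.9) and 76.3% (72.2 to 80.1) met a wide peak in the other sgMETTL1 list, and 84.0 to 85.5% met one in an sgNS list. Of the sgNS wide peaks, 55.3 to 57.4% met a wide peak in an sgMETTL1 list, against 79.5% (76.3 to 82.4) and 82.6% (79.5 to 85.3) in the other sgNS list. The sgNS lists hold more wide peaks, which alone lowers the share that can be met from their side. What stood in place of the missing wide peaks was mostly a set of pieces: 26.5 to 31.7% of sgNS wide peaks met 2 or more narrower single-block peaks in an sgMETTL1 list, against 12.1 and 8.72% in the other sgNS list. A further 11.8 to 15% met 1 narrower peak in sgMETTL1, against 5.76 and 5.96% in sgNS. The pieces of sgNS wide peaks were separated by a median gap of 148 to 149 bases in sgMETTL1 lists and of 118 bases in the other sgNS list. For sgMETTL1 wide peaks in pieces the median gap was 118 and 119 bases in the other sgMETTL1 list and 103.5 to 119 bases in sgNS lists. Even so, sgMETTL1 peaks covered a median of 87.8 to 89.7% of the bases of an sgNS wide peak, where the other sgNS list covered 97.5 and 98.1%.

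**Figure D3:**
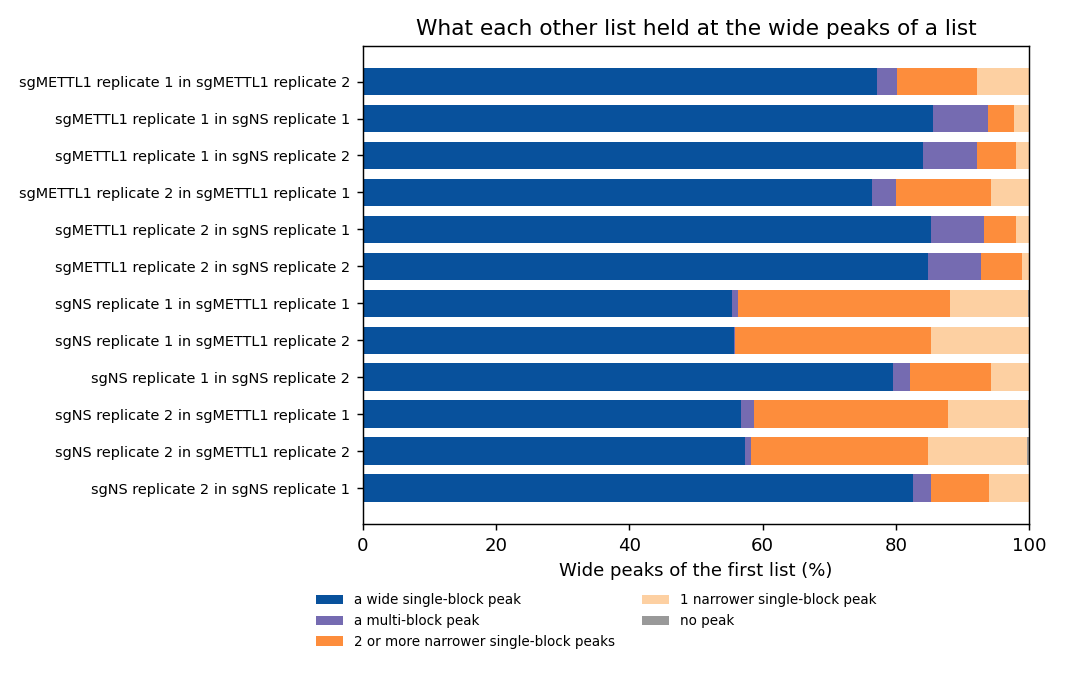
For each ordered pair of lists, the bar splits the wide peaks of the first list (x axis, % of them) by what the second list held at the same place. The wide share (dark blue) is 76.3 to 77.2% between sgMETTL1 lists, 84.0 to 85.5% for sgMETTL1 peaks in sgNS lists, 55.3 to 57.4% for sgNS peaks in sgMETTL1 lists and 79.5 to 82.6% between sgNS lists.

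To follow regions across lists, peaks that shared a base were joined into loci, which gave 886 wide loci in 816 genes among 14330 loci. A peak was present in all 4 lists at 883 of them, and 299 were wide in all 4, 142 in 3, 205 in 2 and 240 in 1. There were 21 loci wide in both sgMETTL1 lists and no sgNS list, and 135 in the reverse case. The 4 pairings of 1 list of each guide gave 7 to 15 loci each. All 135 loci wide in sgNS alone held peaks in both sgMETTL1 lists, with a median of 960 and 959 covered bases in 2.03 and 1.97 peaks per locus, against 1229 and 1217 bases in 1.13 and 1.13 peaks with sgNS. At the 21 loci wide in sgMETTL1 alone, the sgNS lists covered more bases than the sgMETTL1 lists, with a median of 1379 and 1379 bases with sgMETTL1 against 1559 and 1588 bases with sgNS. These sets were chosen by their width in each guide and carry no test.

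Among the loci that were wide in all 4 lists, the largest mean width belonged to PRKCA, which encodes protein kinase C alpha. Its wide peak had 5747 and 5777 bases with sgMETTL1, against 6555 and 5867 bases with sgNS (chr17:66804190-66810744, plus strand, GRCh38). The sgNS replicate 1 peak was unbroken where the other 3 lists had a second, smaller piece downstream. LPP, a LIM protein of focal adhesions, had 5068 and 4917 bases with sgMETTL1 and 5098 and 5098 with sgNS. RAB3B, a GTPase of regulated exocytosis, had 4042 and 3893 bases with sgMETTL1 and 4192 and 4791 with sgNS. For both genes the shortest peak was in sgMETTL1 replicate 2 and the widths of the guides did not overlap, although at LPP the nearest were 5068 and 5098 bases. Smaller side pieces are not part of these widths. How many wide loci had widths without overlap was not counted.

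ZFHX3, a homeobox transcription factor, had 4349 and 4229 bases with sgMETTL1 and 5159 and 2790 with sgNS, so that the sgNS replicates enclosed both sgMETTL1 values. MBNL3, a muscleblind regulator of splicing, had 2996 and 4433 bases with sgMETTL1 and 4433 and 4493 with sgNS. UBXN2B, a cofactor of the p97 ATPase, had 3239 and 2969 bases with sgMETTL1 and 2849 and 3329 with sgNS. In these 2 genes the shorter widths were in lists where the region was broken into pieces. GNA12, a G protein alpha subunit, kept nearly the same width throughout, at 3019 and 3019 bases with sgMETTL1 and 3079 and 3109 with sgNS.

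The highest mean rank by fold among loci wide in all 4 lists was that of ERO1A, which forms disulfide bonds in the endoplasmic reticulum. Its peak was also among the 8 widest, with 3355 and 3505 bases with sgMETTL1 and 3415 and 3385 bases with sgNS. HIPK2, a nuclear stress kinase, had folds of 561 and 352 with sgMETTL1 and 318 and 442 with sgNS over peaks of 2910 to 2940 bases. RIPPLY3, a transcriptional corepressor, had folds of 146 and 500 with sgMETTL1 and 246 and 274 with sgNS. In both genes the replicates of 1 guide lay further apart than the guides.

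ACVR2A, an activin receptor, had folds of 174 and 161 with sgMETTL1 and 308 and 195 with sgNS, and its region was 1 peak of 3177 bases in sgNS replicate 2 but 3, 4 and 3 peaks in sgMETTL1 replicates 1 and 2 and sgNS replicate 1. ZNF43, a KRAB zinc-finger gene, had folds of 204 and 130 with sgMETTL1 and 187 and 228 with sgNS. The caveolar coat gene listed as SDPR (now CAVIN2) had 132 and 116 with sgMETTL1 and 154 and 114 with sgNS. By listed fold only ACVR2A of the 3 separated the guides, with both sgNS folds the higher. Its percentiles overlapped, and its difference on the rank scores described below was −0.13 ± 0.21 (SE, adjusted p = 0.865, limma). Listed folds were lower with sgMETTL1 in general, with a median log2 difference of −0.224 over all loci with a peak in all 4 lists.

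GNE, the enzyme that starts sialic acid synthesis, had folds of 61.5 and 107 with sgMETTL1, against 163 and 139 with sgNS. SUFU, a restraint on Hedgehog signalling, had 67.7 and 83.1 with sgMETTL1 and 97.9 and 127 with sgNS. Both loci were lower with sgMETTL1 without overlap. In the opposite direction without overlap, RBM8A, a core protein of the exon junction complex, had folds of 81.3 and 129 with sgMETTL1 and 77.5 and 79.8 with sgNS. DDHD2, a lipase, had 124 and 103 with sgMETTL1 and 100 and 93.1 with sgNS. On the rank scores described below, GNE, SUFU, RBM8A and DDHD2 had adjusted p of 0.551 to 0.839 (limma). Percentiles did not overlap between the guides at 43.9% of all loci with a peak in all 4 lists. WDFY3, an adaptor of selective autophagy, had 149 and 68.3 with sgMETTL1 and 69.4 and 107 with sgNS, which overlapped.

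The gene for QKI itself was among these 12 loci. Its wide peak (chr6:163572604-163575090, plus strand, GRCh38) had 1798 and 1259 bases with sgMETTL1 and 2068 and 2098 bases with sgNS, and folds of 109 and 107 with sgMETTL1 against 78.0 and 68.0 with sgNS. It was therefore narrower and of higher fold in both sgMETTL1 lists. On the rank scores described next the difference was 0.30 ± 0.19 (SE, n = 2 lists each, adjusted p = 0.603, limma). The higher fold holds for this wide peak and not for QKI as a whole. A multi-block QKI peak upstream had folds of 5.57 and 4.92 with sgMETTL1 against 10.1 and 9.94 with sgNS. Whether reads of the transgene contribute to these peaks was not tested.

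**Figure D4:**
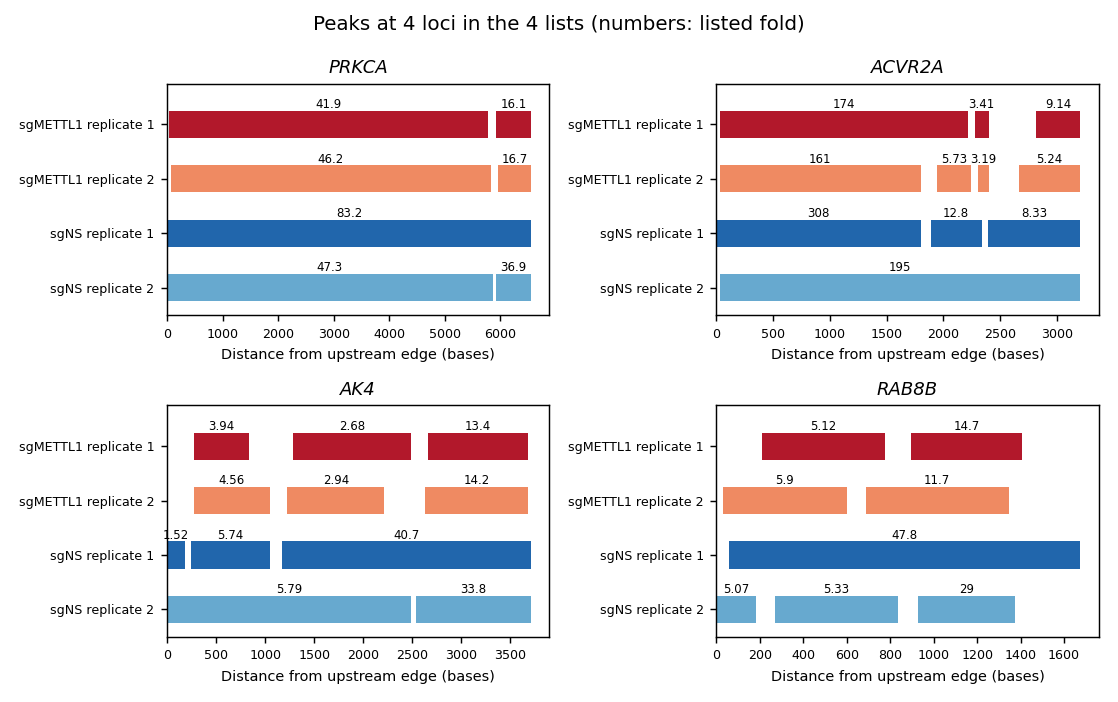
Peaks at 4 loci, drawn to scale as distance in bases from the upstream edge of the locus (x axis), with 1 row per list, sgMETTL1 above sgNS, and the listed fold above each peak. PRKCA is 1 peak of 6555 bases in sgNS replicate 1 and 2 pieces in the other lists, ACVR2A is 1 peak in sgNS replicate 2 and 3 or 4 pieces elsewhere, and at AK4 and RAB8B the strongest pieces have folds of 13.4, 14.2, 14.7 and 11.7 with sgMETTL1, against 40.7, 33.8, 47.8 and 29 with sgNS.

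For the comparison of strength between guides, the strongest fold of each locus was turned, in each list, into a normal score of its rank among the 5895 loci with a peak in all 4 lists, because a common scale of the folds in different lists is not stated. limma was fitted to these loci. No locus passed an adjusted p of 0.05, that is 0% of all loci and 0 of the 883 wide loci, whose smallest adjusted p was 0.385. At an unadjusted p under 0.05, 18 wide loci were higher with sgMETTL1 and 15 lower, together 3.74%, against 5.41% and 4.92% of all loci in each direction and 10.3% in all. The share among wide loci was thus below that of all loci, and with log2 folds in place of ranks the shares were 10.6% and 12.9%. The median score difference of wide loci was −0.03, and that of all loci −0.02.

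Percentiles among these loci did not overlap between the guides at 159 wide loci that were higher with sgMETTL1 and at 226 that were lower, against 20.2% and 23.6% of all loci. Together that was 43.6% of wide loci and 43.9% of all loci, so this count does not separate wide loci from the rest. Ranked among all peaks of each list instead, an alternative added after seeing the data, 69 wide loci were higher with sgMETTL1 and 394 lower, together 52.4%, against 9.25% and 41.0% of all loci and 50.2% in all. On that scale the median score difference was −0.15 over wide loci and −0.18 over all loci, so the split between higher and lower depends on which peaks are ranked. The median absolute difference between replicates of a wide locus was 0.18 with sgMETTL1 and 0.14 with sgNS in score, which are differences between single lists. The median absolute difference between guides, taken between means of 2 lists and without regard to direction, was 0.16. At the 135 loci that were wide in sgNS alone, the median score difference was −0.06, with 55 loci higher and 80 lower with sgMETTL1. Over all loci 2836 were higher and 3059 lower. The 135 were chosen by their width in each guide, and fold rose with width in every list, so their split is no support for a difference in strength.

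**Figure D5:**
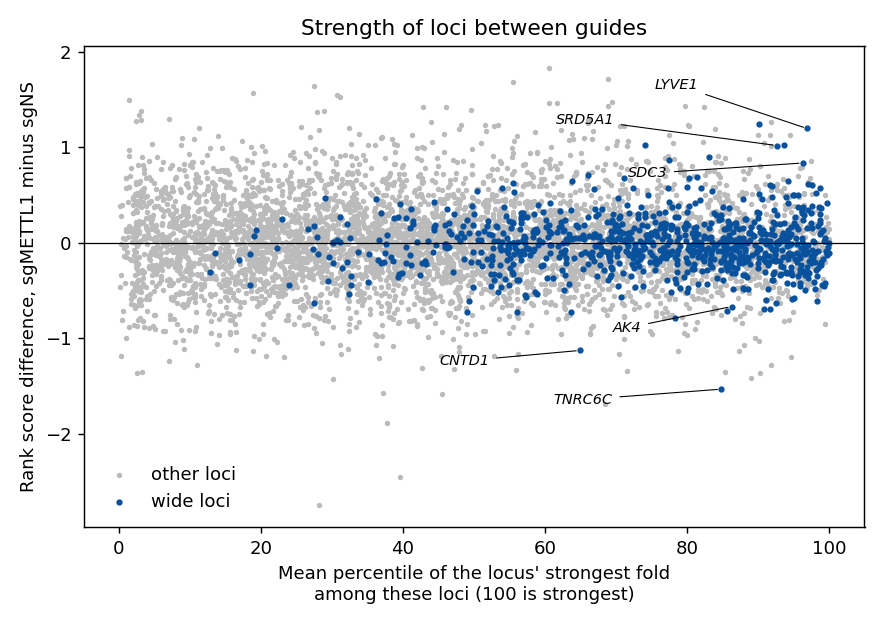
Each point is 1 of the 5895 loci with a peak in all 4 lists, by the percentile of its strongest fold among these loci, averaged over the lists (x axis, 100 is strongest), and the difference in rank score, sgMETTL1 minus sgNS (y axis). The 883 wide loci (blue) lie mostly at high percentiles with a median difference of −0.03, and no locus passed an adjusted p of 0.05.

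The wide loci with the smallest p are given as values only, since none passed the test. On the higher side LYVE1, a hyaluronan receptor best known from lymphatic vessels, had folds of 183 and 155 with sgMETTL1 and 33.6 and 50.7 with sgNS (chr11:10557866-10559056, minus strand, GRCh38). Its single peak of 1191 bases in both sgMETTL1 lists stood against 2 and 3 pieces in the sgNS lists, and the score difference was 1.2 ± 0.22 (SE, adjusted p = 0.385, limma). The p-values of these peaks were weak for wide peaks, with a −log10 p of 47.1 and 33.9 with sgMETTL1. SRD5A1, a steroid 5-alpha reductase, was wide in all 4 lists and had folds of 73.1 and 77.7 with sgMETTL1 and 18.3 and 33.5 with sgNS. Its −log10 p was the higher with sgNS, at 32.4 and 19.7 with sgMETTL1 and 53.4 and 65.8 with sgNS. The median of all wide peaks was higher with sgNS as well, at 139 and 143 with sgMETTL1 against 200 and 189. Ranked by p within each list, the SRD5A1 score difference was −0.0377 ± 0.167 (SE). SDC3, a cell-surface syndecan, had folds of 104 and 97.2 with sgMETTL1 and 34.7 and 42.3 with sgNS, and was wide in sgNS replicate 2 alone.

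ERCC6, a factor of transcription-coupled repair, had folds of 131 and 48.6 with sgMETTL1 and 23.1 and 15.1 with sgNS. NXPE3 had 140 and 52.7 with sgMETTL1 and 24.8 and 29 with sgNS. LYSMD3 had 27.4 and 22.2 with sgMETTL1 and 11.8 and 11.7 with sgNS. It was wide in sgMETTL1 replicate 1 alone, and so, like LYVE1, counted as wide only through the guide with the higher folds. As in SRD5A1, the −log10 p of NXPE3 and LYSMD3 was higher with sgNS, as it was for wide peaks in general. It was 28.8 and 21.7 with sgMETTL1 and 69.3 and 53.1 with sgNS in NXPE3. In LYSMD3 it was 30 and 38.6 with sgMETTL1 and 80.5 and 63.8 with sgNS. Ranked by p within each list, the score differences were −0.0574 ± 0.114 (SE) in NXPE3 and 0.0164 ± 0.0997 (SE) in LYSMD3. In ERCC6 and NXPE3 the sgMETTL1 replicates differed from each other by more than the sgNS replicates did, and all 3 had adjusted p of 0.399 to 0.425 (limma).

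On the lower side TNRC6C, a GW182 partner of Argonaute in miRNA silencing, had folds of 19.0 and 6.35 with sgMETTL1 and 65.4 and 98.9 with sgNS. It was 1 peak of 1589 bases in sgNS replicate 2, 2 pieces in sgNS replicate 1 and 2 and 4 pieces with sgMETTL1, and its score difference was −1.54 ± 0.33 (SE, adjusted p = 0.391, limma). AK4, a mitochondrial adenylate kinase, was wide in all 4 lists with folds of 13.4 and 14.2 with sgMETTL1 and 40.7 and 33.8 with sgNS. Its widest peak had 1198 and 1049 bases with sgMETTL1 and 2546 and 2485 with sgNS. The largest width and the strongest fold were each lower in both sgMETTL1 lists, but did not always belong to the same peak. In sgMETTL1 replicate 1 the peak of 1198 bases had a fold of 2.68, and 13.4 belonged to a peak of 1019 bases. In sgNS replicate 2 the peak of 2485 bases had a fold of 5.79, and 33.8 belonged to a peak of 1169 bases. Ranked by p within each list, the AK4 score difference was −0.0289 ± 0.0918 (SE). RAB8B, a GTPase of vesicle traffic, had folds of 14.7 and 11.7 with sgMETTL1 and 47.8 and 29 with sgNS, as drawn in the plot of 4 loci.

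SMC2, a condensin subunit, had folds of 4.06 and 5 with sgMETTL1 and 11.3 and 11.1 with sgNS. IMP4, a protein of ribosomal RNA processing, had 2.57 and 2.70 with sgMETTL1 and 5.49 and 4.26 with sgNS. CNTD1, a cyclin-like protein of meiotic crossing over, had 4.69 and 5.02 with sgMETTL1 and 18.5 and 23.2 with sgNS, but the sgNS replicate 1 value belonged to a side piece of 91 bases and its main piece of 924 bases had a fold of 5.38. The strongest fold of a locus can therefore come from different pieces in different lists. Of the 3 genes, CNTD1 shows a value that rests on 1 such piece. SMC2 and RAB8B were wide in sgNS replicate 1 alone, and IMP4, CNTD1 and TNRC6C in sgNS replicate 2 alone. These loci thus counted as wide only through the guide with the higher folds, so their direction is no support for a difference.

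Loss or gain of a whole wide region was rare. A peak in both sgNS lists and in no sgMETTL1 list was found at 1 of 886 wide loci (0.113%), against 7.5% of all loci, and the reverse case at 0 wide loci, against 1.21% of all loci. Wide loci were mostly strong ones and, by the rule, long ones, which 1 shared base joins more easily to a peak of another list. The parts of strength and of length in these shares were not tested. The 1 locus lay in DOT1L, the histone H3 lysine methyltransferase (chr19:2230539-2231739, plus strand, GRCh38), with a fold of 2.14 over 2 pieces in sgNS replicate 1 and 3.97 over 1201 bases in sgNS replicate 2. Both folds were below the median of their list. The other 2 wide loci without a peak in all 4 lists were in MDM4, with none in sgMETTL1 replicate 1, and NFATC2IP, with none in sgMETTL1 replicate 2.

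Some genes held several wide loci. There were 60 genes with at least 2 and 9 with at least 3. HIPK2 had 4, of which the one at its 3' end was the strongest by far. The next upstream was wide in all 4 lists, with folds of 9.42 and 10.2 with sgMETTL1 and 13.6 and 11 with sgNS, and the 2 others were wide in sgNS replicate 2 alone. A1CF, the APOBEC1 complementation factor of APOB mRNA editing in liver, had 3 loci, and 2 of them were wide in all 4 lists. At the first of these the folds were 35 and 42.8 with sgMETTL1 and 31.5 and 34.7 with sgNS over 1945 to 1975 bases.

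CPEB4, a regulator of cytoplasmic polyadenylation, had 3 wide loci, with folds of 18.5 and 24.7 with sgMETTL1 and 19.5 and 20.5 with sgNS at the widest. There the region was a single block of 2341 bases only in sgMETTL1 replicate 1 and was joined to a further exon block in the other lists. LCOR, a corepressor of nuclear receptors, had 3 loci and 1 of them was wide in all 4 lists, with folds of 8.38 and 6.02 with sgMETTL1 and 7.30 and 6.44 with sgNS. CYP20A1, an orphan cytochrome P450, and CLN8, a protein of the endoplasmic reticulum, had 3 each. In HIPK2 neighbouring loci differed in fold by more than an order of magnitude within each list, while the guides overlapped at most loci of these genes.

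Genes were then grouped by function and counted as wide where both lists of a guide held a wide peak, which 5.29% of the 6520 genes with any peak did with sgMETTL1 and 8.24% with sgNS. Among 31 regulators that act through 3' UTRs, 25 had a peak, 8 had wide peaks in both sgMETTL1 lists and 9 in both sgNS lists. ELAVL1 (HuR), which binds AU-rich elements, had folds of 67.6 and 50.4 with sgMETTL1 and 55.7 and 116 with sgNS over 1711 to 1951 bases. The guides overlapped at ELAVL1. CPEB2, a relative of CPEB4, had 2 wide loci, and its gene held a wide peak in every list.

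Of 14 genes listed as known QKI targets, all had a peak, 2 had wide peaks in both sgMETTL1 lists and 5 in both sgNS lists. CDKN1B, the cell-cycle inhibitor p27, had folds of 31.2 and 26.7 with sgMETTL1 and 26.1 and 22.8 with sgNS over 1247 to 1276 bases. MAP1B, a microtubule-binding protein, had a peak of 2754 and 2665 bases with sgMETTL1 and 2665 and 2784 bases with sgNS. These 2 genes were the ones wide with both guides. GSK3B, a kinase of Wnt and insulin signalling, had 990 and 840 bases with sgMETTL1 and 1080 and 1050 with sgNS, with folds of 31.2 and 34.4 against 39.1 and 40.4. Both sgMETTL1 peaks lay under the limit and both sgNS peaks just over it. VEZF1, a zinc-finger factor, was 1 peak of 1406 and 1376 bases with sgNS and 2 and 3 pieces with sgMETTL1.

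Of 28 HECT and RING ubiquitin ligases, 23 had a peak, 5 were wide in both sgMETTL1 lists and 4 in both sgNS lists. ITCH had folds of 39.6 and 17.4 with sgMETTL1 and 26.9 and 37.0 with sgNS over 1376 to 1525 bases, and the guides overlapped. ZNRF3, which removes Wnt receptors, counted as wide with sgMETTL1 alone. With sgNS its region was part of a longer multi-block peak, and the folds of the locus were 104 and 96.4 with sgMETTL1 and 200 and 146 with sgNS. Its region was thus longest in the lists where it did not count as wide. XIAP, an inhibitor of caspases, held 2 wide loci.

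Of 31 Hippo pathway genes, 20 had a peak, 4 were wide in both sgMETTL1 lists and 5 in both sgNS lists. YAP1, the coactivator at the end of the pathway, had folds of 14.1 and 9.84 with sgMETTL1 and 18.0 and 14.8 with sgNS over 1168 to 1198 bases. WWC2, an upstream scaffold, had 31.7 and 21.1 with sgMETTL1 and 17.3 and 19.8 with sgNS. By fold, YAP1 was lower and WWC2 higher with sgMETTL1 without overlap, and neither passed the test (adjusted p = 0.869 and 0.569, limma). TAOK1, an upstream kinase, was wide in all 4 lists, and MOB1B, a cofactor of the LATS kinases, in the 2 sgNS lists alone.

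Of 19 receptors and Smads of the TGF-beta superfamily, 16 had a peak, 2 were wide in both sgMETTL1 lists and 4 in both sgNS lists. ACVR2A is described above. SMAD9, a BMP-responsive Smad, had folds of 27.4 and 24.2 with sgMETTL1 and 43.5 and 41.3 with sgNS, lower in both sgMETTL1 lists (score difference −0.33 ± 0.18, SE, adjusted p = 0.564, limma). BMPR2, a BMP receptor, had 56.5 and 55.7 with sgMETTL1 and 45.4 and 47.5 with sgNS. The 2 genes differed in direction.

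Of 36 chromatin regulators, 33 had a peak, 2 were wide in both sgMETTL1 lists and 3 in both sgNS lists. KMT2C, a histone H3 lysine methyltransferase, had folds of 81.9 and 54.7 with sgMETTL1 and 70.3 and 67.4 with sgNS over 1528 to 1648 bases. ARID2, a subunit of the PBAF remodelling complex, was wide with sgMETTL1 alone, although its region covered 1916 and 1706 bases with sgMETTL1 and 2244 and 2005 bases with sgNS. Of 32 hepatocyte secreted proteins 6 had a peak, and SERPINA1, alpha-1-antitrypsin, was the 1 gene wide in both lists of either guide, with folds of 17.0 and 15.2 with sgMETTL1 and 18.7 and 22 with sgNS. Of 88 cytosolic ribosomal protein genes 5 had a peak and 0 had a wide one.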

How the data were processed

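RIP-seq peaks of 3 x Flag-QKI7 were analysed in 4 lists, 2 per guide, each from 1 IP and 1 input sample per the labels, with replicates not pooled. Per the submitters' processing notes, STAR and GRCh38 were used. Which caller made the peaks, with what threshold and scaling, is not given in the sources used here. Per the file headers, each peak has a fold enrichment, a ratio of IP over input made by the authors. The p-value of each peak is as deposited by the authors. The base-10 logarithm of p, as deposited by the authors, exceeds the usual range and was handled as a score. The files give no reads per peak, so depth is unknown.

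Wide peaks were rows with blockCount 1 and a block size of at least 1000 bases. Peaks were matched by chromosome, strand and at least 1 shared exon base (bedtools 2.31.1), and chains of matched peaks formed loci. A locus' strongest fold was ranked in each list among the loci with a peak in all 4 lists, turned into a normal score and compared with limma 3.58.1 (R 4.3.3, two-sided, Benjamini-Hochberg FDR of 5% over all of these loci). Shares carry 95% intervals by the exact Clopper-Pearson method. The scripts used Python 3.11.15 with numpy 2.4.6, pandas 2.3.3, matplotlib 3.10.9 and scipy 1.17.1. They were tested on simulated data. Coordinates are 1-based. Of 822 gene names with a wide peak, 792 were current RefSeq symbols (GRCh38.p14), 29 were found as an older symbol and 1 was not found. Positions use the RefSeq gene span, and exon parts were not analysed here.

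The members and the 8 gene lists were chosen with earlier results of these data known. Named loci were, by rule, the 12 best-ranked and 8 widest of those wide in all 4 lists, the 6 with the smallest p in each direction, loci with peaks of 1 guide only, the 6 genes with most wide loci, up to 4 members per gene list with a wide peak in both lists of a guide, QKI, METTL1, WDR4 and IGF2, and the peaks next to 1000 bases. MDM4, NFATC2IP and ERV3-1 were named outside that rule after their values were seen, ERV3-1 because its sequence could be read. Alternatives were other overlaps, widths, strength measures, ranks among all peaks of a list, peaks per locus, fold minimums, list lengths, parts of the gene span, a replicate block, and leaving out each list. Replicate deviations did not correlate between the guides (0.01 over 5895 loci), so no pairing by replicate number was seen in these scores. Whether the samples were processed in pairs is not stated. One gene that the rule names is not reported here.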

Additional observations from a re-analysis of the deposited data

How the results depend on the processing

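The limma count of called wide loci was 0 under all 11 alternatives. Wide loci at an unadjusted p under 0.05 numbered 33 in the main setting (3.74%, against 10.3% of all loci), 94 with log2 folds (10.6% against 12.9%, 14 higher with sgMETTL1), 106 with ranks by p (12% against 17.6%), 70 with the mean of a locus' peaks (7.93% against 10.4%), 55 with ranks among all peaks of a list (6.23% against 14.9%, 7 higher with sgMETTL1), 31 with 50% reciprocal overlap (4.17% against 9.93%), 28 when folds under 2 times each list's minimum were left out (3.18% against 9.52%), and 22 to 33 when 1 list was left out (2.49 to 3.74% against 7.82 to 10.3%), with the lone list assumed to vary like the other guide's. With the replicate number as a block the count of calls was 0 and 23 wide loci had an unadjusted p under 0.05 (2.60% against 10.2%). No pairing by replicate number was seen in the scores, where the correlation of replicate deviations was 0.01 over all loci and 0.00041 over wide loci. That does not show how the samples were processed. Ranked by p, the score difference turned to −0.0377 ± 0.167 (SE) for SRD5A1 and −0.0574 ± 0.114 for NXPE3, and to 0.0256 ± 0.0804 for CNTD1. Each was smaller than its SE. The share of wide peaks met in the other list of the guide fell to 94.6% with sgMETTL1 and 94.9% with sgNS at 50% reciprocal overlap, to 76.8% and 81.0% when a wide peak was required, and for sgNS to 99.9% with the fold minimum. At 1500 bases 151 and 135 peaks were left with sgMETTL1 and 248 and 232 with sgNS, and the median fold percentile was 88.8 with sgMETTL1 and 90.9 with sgNS. By p that percentile was 93.2 with sgMETTL1 and 91.8 with sgNS. The last 20% of the span held 90.5% of wide peaks with sgMETTL1 and 90.8% with sgNS, and in genes that also held another peak the last 10% held 79.4% and 79.7%. With 50% reciprocal overlap, wide loci with peaks of 1 guide only numbered 12 for sgMETTL1 and 54 for sgNS, and at 1500 bases 0 for each. That overlap rule splits regions of unlike width into separate loci by construction. For the other changes the cause was not tested. The ranks among all peaks of a list, the list lengths and the 1500-base limit for the numbers of wide peaks were alternatives chosen after seeing the data. No reads per peak were used, so what depth limits could not be measured.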

Other observations

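Peaks joined from several exon blocks in some cases also held a long block and are not counted as wide single-block peaks. A block of at least 1000 bases was present in 99 and 103 multi-block peaks with sgMETTL1 and in 149 and 155 with sgNS. Their median fold was 26.6 and 29.6 with sgMETTL1 and 27.3 and 26.0 with sgNS, against 3.66 and 3.64 with sgMETTL1 and 3.97 and 3.52 with sgNS for multi-block peaks without such a block. IGF2, a fetal growth factor gene, had 1 multi-block peak in every list and no wide single-block peak.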
